A study of Mus musculus with 4 samples.

Results

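Cyclin G1 (Ccng1), cyclin G2 (Ccng2) and cyclin I (Ccni) are related atypical cyclins, and Gak encodes the cyclin G-associated kinase. The levels of their mRNAs were examined in mouse embryonic fibroblasts (MEFs) from mice lacking cyclin G1 (G1KO) or cyclin G2 (G2KO). The members were taken as every gene probe whose name in the scanner files was one of these 4 symbols. This gave 10 of the 41174 gene probes on the array and 4 of its 27745 gene names. Ccng1 was read by 2 probes, Ccng2 by 1, Ccni by 5 and Gak by 2.

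The cyclins G and I do not drive the cell cycle by a periodic rise and fall, unlike the classical cyclins. Ccng1 is a transcriptional target of p53, and its product brings the PP2A phosphatase to MDM2, the ubiquitin ligase that restrains p53. Ccng2 is induced by FoxO factors and its product accumulates in cells that leave the cell cycle, cyclin I is known as a partner of CDK5 in cells that no longer divide, and GAK works with HSC70 to strip clathrin from coated vesicles.

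The G1KO culture (CycG1-/-) was compared with its own WT culture (CycG1+/+), and the G2KO culture (CycG2-/-) with another WT culture (CycG2+/+). All 4 cultures were MEFs in logarithmic growth with no further treatment, prepared from mid-gestation embryos, and how many embryos gave each culture was not given in the sources used here. The strain was given as C57BL/6J for every culture, although the source names of the G2KO pair read C57BL/7J. In the G1KO mice the exons that encode cyclin G1 had been replaced by a neomycin cassette, while the structure of the Ccng2 allele was not given in those sources either. Each knockout RNA was hybridised together with its WT RNA on 2 arrays, with the dyes Cy5 and Cy3 exchanged on the second. There was thus 1 culture per genotype and 1 replicate per comparison, so differences between genotypes were not tested. Values after ± are the SD of the 2 arrays, or of the 2 dyes for a level, and are technical.

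All 12 fibroblast markers examined were well above background in all 4 cultures. Their summed level was 18.4 to 19.1 on the log2 scale in the knockout cultures and 19.4 to 19.8 in the WT cultures. The cultures also differed in markers of other cell types. The 5 mesothelial markers were all detected in the G1KO pair, with a summed log2 level of 17.6 to 17.9 in WT and 14.3 to 14.6 in G1KO, whereas 1 of them was detected in either culture of the G2KO pair. Of 6 epithelial markers 4 were detected in both cultures of the G1KO pair, with a summed log2 level of 15.04 to 15.20, whereas 1 was detected in G2KO and 2 in its WT, with a summed level of 8.77 to 9.41, and Epcam was not well above background in any culture. Neural and glial markers summed to a log2 level of 14.5 in G2KO and 11.4 to 11.6 in its WT. Of these 7 markers 5 were detected in G2KO and 6 in its WT, where Sox10 was detected and in G2KO it was not. In the G1KO pair 5 were detected in each culture, with a summed level of 12.19 to 12.25 in G1KO and 11.27 to 11.33 in WT. Xist, the RNA that coats the silent X of female cells, was higher by 7.54 and 7.24 on the log2 scale in G1KO and G2KO, and the Y-linked Eif2s3y was not above background in either knockout. Sex and genotype therefore cannot be told apart, and the part of these differences in the values below was not tested.

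Ccng1 mRNA was far lower in G1KO than in its WT. The brighter of its 2 probes lay on the minus strand of chromosome 11 (chr11:40592348-40592407, build mm8). Its spot had a mean brightness of 166 in Cy5 and 78.7 in Cy3 in the G1KO culture, and of 21064 and 8629 in the WT culture hybridised with it. The log2 ratio of G1KO over WT was -6.76 on the array with the knockout in Cy5 and -6.57 on the array with it in Cy3, and the mean of -6.67 ± 0.13 was a 102-fold lower level. This was the lowest ratio of all 25541 probes tested in the comparison, where a probe was tested if it was well above background on both arrays in at least 1 genotype. The second probe (chr11:40594334-40594393) read -4.91 and -5.02, with a mean of -4.96 ± 0.08 and a 31.2-fold lower level, the rank of 15 from the lowest. For other genes, and for Ccng1 in the G2KO comparison, bulk RNA cannot tell fewer cells with a transcript from less of it per cell.

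The signal of Ccng1 in G1KO was low but measurable, since both probes stayed well above background in G1KO on both arrays. The size of the fall depended on how the dim G1KO spot was treated, and the scanner software's own ratio gave -7.62 for the brighter probe. Whether the probes lie in the replaced exons could not be read from the files, because no annotation of build mm8 was used here.

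In the G2KO comparison Ccng1 moved the other way. The brighter probe read 2.65 and 2.69 and the other 2.52 and 2.46 on the 2 arrays, with means of 2.67 ± 0.03 and 2.49 ± 0.04, which are 6.35-fold and 5.62-fold higher levels in the RNA labelled G2KO. These probes held the ranks 61 and 73 from the highest among 25430 probes tested. The Ccng1 readings of the 2 comparisons did not overlap in either dye.

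A probe was called when its ratio was at least 2-fold in the same direction on both arrays. Of the 10 member probes, 9 were tested in each comparison. In G1KO over WT, 2 were called, both lower and both of Ccng1, beside a share of 5.79% of all tested probes. In G2KO over WT, 2 were called, both higher and again both of Ccng1, beside 6.37% of all tested probes. Since probes of Ccng1 read the same transcript, each of these counts is 1 gene.

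**Figure D1:**
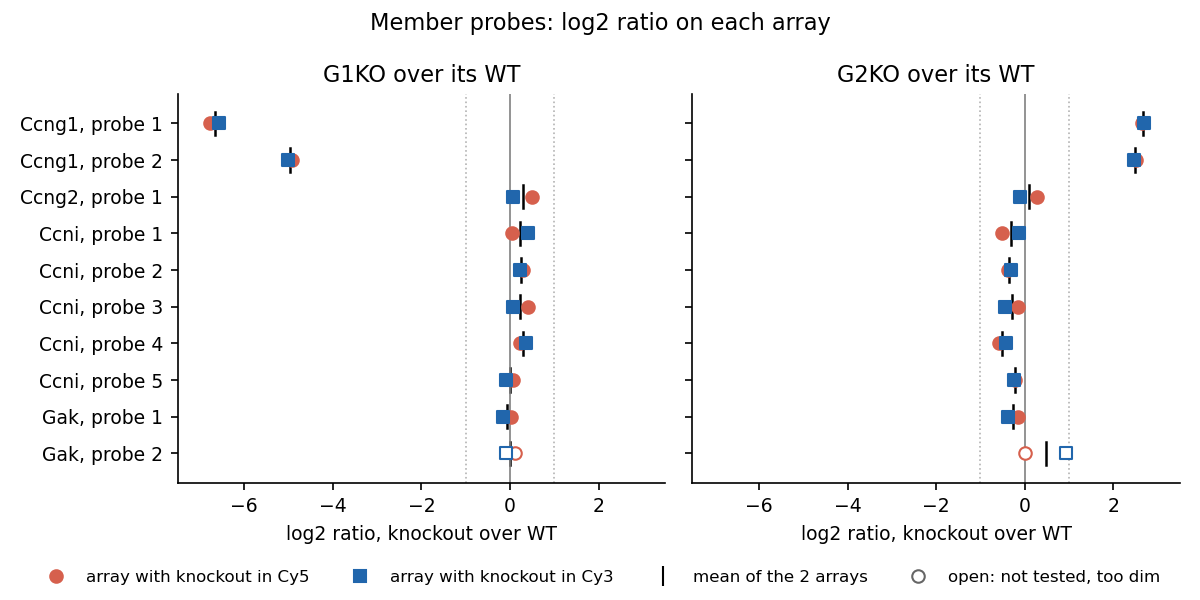
Log2 ratio of knockout over WT (horizontal axis) for each of the 10 member probes in the G1KO comparison (left) and the G2KO comparison (right). Circles are the array with the knockout in Cy5, squares the array with it in Cy3, black ticks their mean, dotted lines 2-fold, and open symbols a probe too dim to be tested. The Ccng1 probes lie at -6.67 and -4.96 on the left and at 2.67 and 2.49 on the right, and every other tested probe lies within 2-fold.

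**Figure D2:**
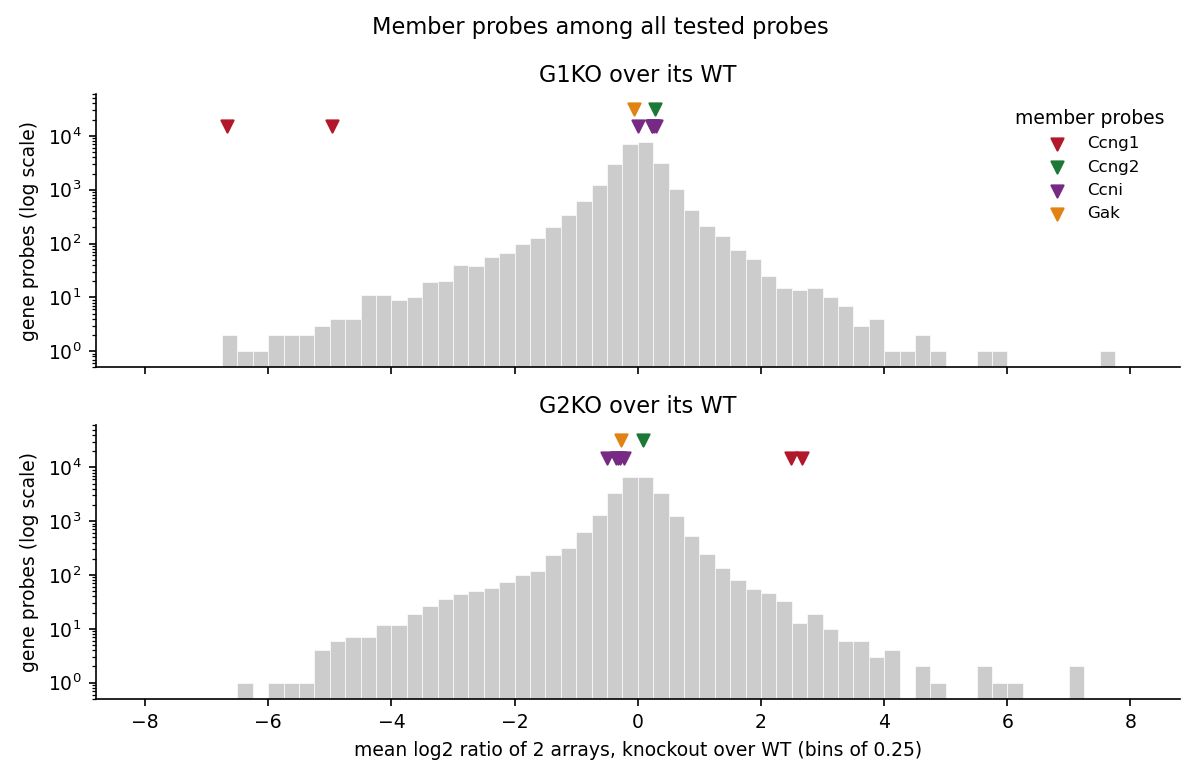
Distribution of the mean log2 ratio of all tested probes (grey bars, log-scaled counts) in the G1KO comparison (above) and the G2KO comparison (below), with the tested member probes marked by triangles. A Ccng1 probe is at the lowest end of the G1KO distribution at -6.67 and both are in the upper tail of the G2KO distribution, while Ccng2, Ccni and Gak lie in the central mass.

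The level in each single culture was then read from the separate channels, scaled across arrays, and compared within a dye. Each pair of cultures was read on its own arrays. A difference between cultures of different pairs therefore cannot be told apart from one between arrays. For the brighter Ccng1 probe the log2 level in Cy5 and Cy3 was 6.89 and 7.13 in G1KO, 13.70 and 13.65 in its WT, 13.80 and 13.80 in G2KO, and 11.11 and 11.15 in the WT of G2KO. The WT cultures differed, and the WT of G2KO was below the WT of G1KO by 2.55 ± 0.07 on the log2 scale at this probe and by 2.25 ± 0.04 at the other. G2KO itself exceeded the WT of G1KO by 0.12 ± 0.04 and 0.24 ± 0.08. The order at both probes was G2KO, WT of G1KO, WT of G2KO and G1KO. The steps down to the WT of G2KO and to G1KO were far larger than the typical SD between dyes of 0.107 to 0.149. The step of 0.12 between the highest cultures at the brighter probe was close to the typical SD of 0.111 for that difference, so these cultures were hardly separated there.

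A sequence that matches the binding element of p53 lies before the start of Ccng1, and is shown because the next results set Ccng1 beside other p53 targets. The p53 response element, made of 2 abutting half-sites of 10 bases, was searched with at most 1 mismatch in RefSeq promoter windows of build GRCm38.p6, each from 250 bases before to 50 bases after a gene start. The element reads the same on both strands. The stretch below lies on the minus strand at chr11:40755422-40755521, and its capitals mark the element, 195 to 176 bases before the start, which differs from the consensus at 1 base.

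Ccng1: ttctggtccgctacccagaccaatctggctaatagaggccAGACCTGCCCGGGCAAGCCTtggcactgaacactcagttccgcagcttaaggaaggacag

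Such an element was present in 29 of 32851 windows (0.0883%). Among p53 target genes other than Ccng1, 17 of 25 had windows, 23 in all, and 1 of these held it, that of Cdkn1a. The windows of Ccng2, Ccni and Gak held none. The FoxO core GTAAACA, searched on both strands, was in 3.65% of all windows, in that of Ccni, and in none of the other members. A match is a sequence description, and no binding was measured.

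Ccng2 did not differ between the RNA labelled G2KO and its WT beyond the spread of the arrays. Its single probe lay on the plus strand of chromosome 5 (chr5:94351052-94351111, build mm8). The log2 ratio was 0.28 with the knockout in Cy5 and -0.10 with it in Cy3, a mean of 0.09 ± 0.27, and 78.6% of tested probes had a ratio as large or larger. The mean brightness in Cy5 was 6586 in G2KO and 6221 in its WT, so the probe gave a strong signal in both. Since the position of the probe relative to the disrupted part of the allele was not given, this value is no check of the G2KO label. In G1KO over WT the ratio of Ccng2 was 0.51 and 0.06, a mean of 0.28 ± 0.32.

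Ccng2 instead differed between the 2 pairs of cultures, which were also read on different arrays. Its log2 level was 12.14 and 11.99 in G2KO and 12.10 and 11.87 in the WT of G2KO (Cy5 and Cy3). It was 11.11 and 10.91 in G1KO and 10.85 and 10.61 in the WT of G1KO. Both cultures of the G2KO pair were above both cultures of the G1KO pair in each dye. The epithelial and mesothelial markers differed along the same split, with higher sums in the G1KO pair, and their part in the Ccng2 level was not tested. G2KO and its WT were 0.09 apart, less than the typical SD between dyes, and G1KO was above its WT by 0.27 and 0.30 within a dye. Between the WT cultures the difference was 1.26 ± 0.01, between G2KO and G1KO 1.06 ± 0.04, and between G2KO and the WT of G1KO 1.34 ± 0.07. G1KO was below the WT of G2KO by 0.97 ± 0.02, just short of 2-fold.

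By the 2-fold rule applied in both dyes, 3 of 9 tested member probes were called between the WT cultures, with Ccng2 higher and both Ccng1 probes lower in the WT of G2KO, beside 11.0% of all tested probes. Between the knockout cultures 3 were called, all higher in G2KO and of the same 2 genes, beside 8.64%. Between G2KO and the WT of G1KO 1 was called, Ccng2, beside 11.7%. Between G1KO and the WT of G2KO 2 were called, both of Ccng1 and lower in G1KO, and Ccng2 was not. There 8.9% of all genes, each by its brightest probe, were called.

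**Figure D3:**
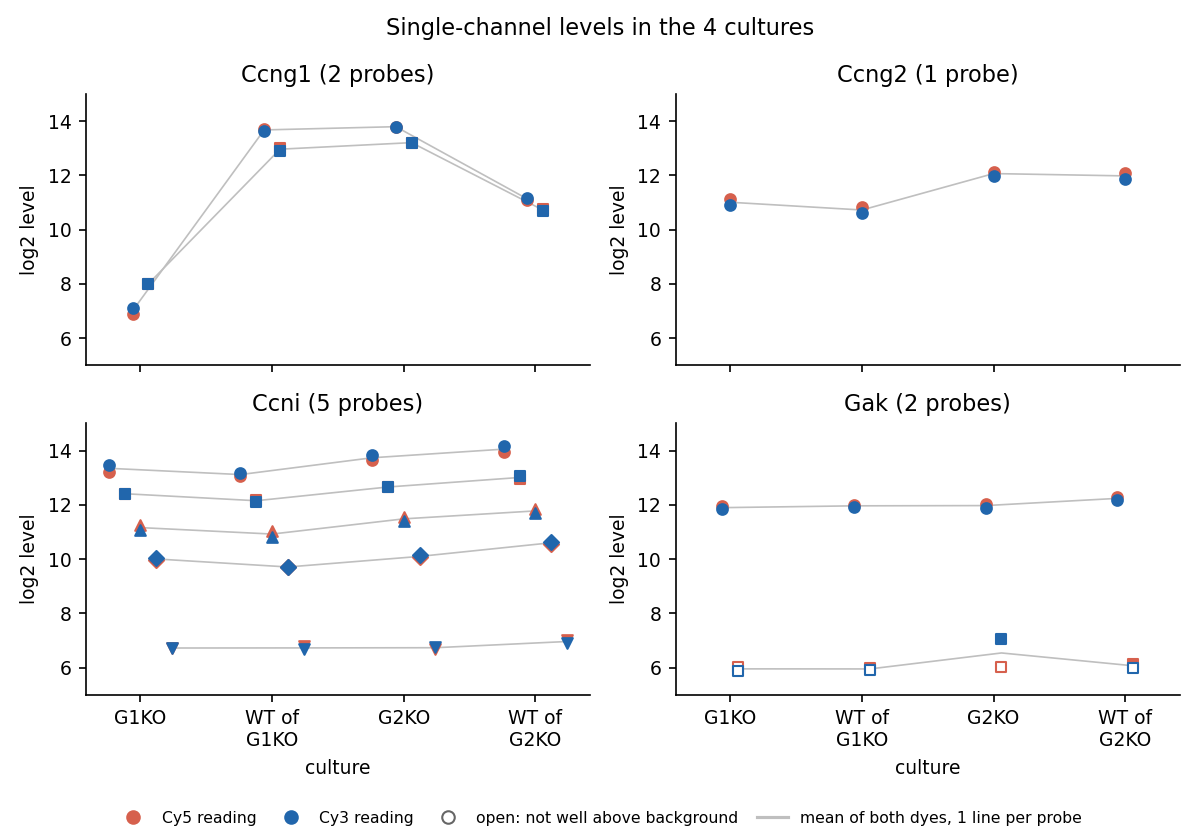
Single-channel log2 level (vertical axis) of each member probe in the 4 cultures (horizontal axis), read in Cy5 (red) and Cy3 (blue). Grey lines join the means of a probe and open symbols are not well above background. Ccng1 is low in G1KO and intermediate in the WT of G2KO, Ccng2 is higher in both cultures of the G2KO pair, and Ccni and the brighter Gak probe span less than 2-fold.

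Ccni differed little, but its probes moved together. Of its 5 probes, 4 lay on the minus strand between positions 94257235 and 94263298 of chromosome 5 (mm8) and matched the same RefSeq transcript. In G1KO over WT their mean log2 ratios were 0.23 ± 0.25, 0.26 ± 0.06, 0.24 ± 0.25 and 0.30 ± 0.08, with every array above 0. In G2KO over WT they were -0.32 ± 0.28, -0.35 ± 0.04, -0.29 ± 0.21 and -0.50 ± 0.11, with every array below 0. At the 2 probes with an SD of 0.25 in G1KO the mean did not exceed the SD between the arrays, and none of the 4 reached 2-fold in either comparison. Over all probes tested in both comparisons, 8637 of 24150 (35.8%) took opposite signs on every array, so this behaviour is common. Among member probes 6 of 9 did, the 4 of Ccni and the 2 of Ccng1.

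At these 4 Ccni probes the highest level was in the WT of G2KO, followed by G2KO, G1KO and the WT of G1KO. The steps exceeded the typical SD between dyes, with the exception of that from G2KO to G1KO at 1 probe, which was 0.09. At the brightest Ccni probe the log2 level in Cy5 and Cy3 was 13.95 and 14.16 in the WT of G2KO and 13.64 and 13.83 in G2KO. It was 13.22 and 13.47 in G1KO and 13.07 and 13.17 in the WT of G1KO. The difference between the WT cultures was 0.85 to 0.94 at the 4 probes, just under the 2-fold rule. The fifth probe (chr5:94282207-94282266) lay on the opposite strand, matched another transcript record and was dim, with brightness of 63.1 to 126. Its ratios were -0.00 ± 0.10 and -0.23 ± 0.02, and it is not counted with the others.

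Over the 4 cultures Gak had the smallest range of levels when the brightest probe of each member was compared, although in G2KO over WT the ratio of Ccng2 was nearer to 0. Its brighter probe (chr5:108809885-108809944, minus strand, mm8) read 0.02 and -0.15 in G1KO over WT, a mean of -0.07 ± 0.12, within the spread of the arrays. In G2KO over WT it read -0.15 and -0.38, a mean of -0.27 ± 0.16. The log2 level in Cy5 and Cy3 was 11.94 and 11.85 in G1KO, 12.00 and 11.92 in its WT, 12.04 and 11.90 in G2KO, and 12.28 and 12.20 in the WT of G2KO. The WT of G2KO was highest by 0.27 over G2KO, and the other 3 cultures did not differ beyond the spread of the dyes. The second Gak probe (chr5:108839953-108840012), with a brightness of 38.0 to 90.2, was not well above background on both arrays in any culture and was left untested. Its value of 0.93 in G2KO over WT on the array with the knockout in Cy3 was not repeated on the other, which read 0.01.

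The genes with a pattern most like each member were sought over the 4 arrays, as the smallest Euclidean distance between log2 ratios among genes detected in both comparisons. Among the closest to Ccng1 were Aldh1a1, a retinaldehyde dehydrogenase, and Ahr, the aryl hydrocarbon receptor, at distances of 2.3 and 3.43 beside a median of 10.2 over all genes. Aldh1a1 read -5.60 ± 0.32 in G1KO over WT and 3.84 ± 0.10 in G2KO over WT, and Ahr -4.32 ± 0.01 and 2.04 ± 0.03. The other members, which varied little, had many near neighbours. The nearest were Mynn, Macroh2a1 and Wdr70 for Ccng2, Abcf2, Psmd2 and Gmeb1 for Ccni, and Elavl1, Dock11 and the unnamed transcript NAP028025-1 for Gak, all at distances of 0.029 to 0.0904.

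The genes beside the targeted loci were also examined. Within 250 kb of the Ccng1 probe the array read 5 genes, all tested, and 0 were called in either comparison, beside 6.95% and 7.57% called over all genes, so that a count of 0 among so few genes says little. The nearest, Nudcd2 at 9.6 kb, read -0.01 ± 0.28 in G1KO over WT, and Hmmr, the hyaluronan-mediated motility receptor, read -0.29 ± 0.04. Mat2b, the regulatory subunit of methionine adenosyltransferase, read -0.54 ± 0.13. In G2KO over WT Nudcd2 read 0.08 ± 0.26, Hmmr 0.27 ± 0.09 and Mat2b -0.415 ± 0.11, so Mat2b was lower in both comparisons. Around Ccng2 the array read 8 genes within 250 kb, Ccni among them at 93.8 kb. Of these, 4 were tested, Ccni and the transcript record AK034915 among them, and 0 were called in either comparison. The septin gene Septin11 read -0.26 ± 0.31 and -0.24 ± 0.27. Beside Gak, the lysosomal channel gene Tmem175 read 0.18 ± 0.10 in G1KO over WT and -0.39 ± 0.04 in G2KO over WT. Beside Ccni the nearest on one side was Septin11, at 5.7 kb from the brightest Ccni probe. AK034915, at 2.0 kb on the other side, lay within the span of the 4 Ccni probes on the minus strand. It read 0.34 ± 0.17 and -0.30 ± 0.02, and whether it is a separate gene was not examined.

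Other p53 targets were set beside Ccng1, as 25 genes each read by its brightest probe. In G1KO over WT 0 were called higher and 4 lower, with 2 of 25 above 0 and a median log2 ratio of -0.48, beside a median of -0.00 and 6.95% called over all 16534 genes tested. The genes called were Perp (-2.43 ± 0.10), an epithelial membrane protein that promotes apoptosis, the death receptor Fas (-1.79 ± 0.16), the receptor Eda2r (-1.28 ± 0.14) and the kinase Plk2 (-1.21 ± 0.10). The 2 other Eda2r probes read -0.81 and -0.58, short of 2-fold, and the other Fas probe read -1.07. Cdkn1a, which encodes the CDK inhibitor p21, read -0.77 ± 0.07 and Mdm2 -0.92 ± 0.13, below the rule.

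In G2KO over WT more genes of the same list were called higher than lower. Of the 25 genes 9 were called higher and 1 lower, with 19 above 0 and a median of 0.52, beside a median of -0.02 and 7.57% called over all 16488 genes tested. The highest were Eda2r (3.21 ± 0.13), Cdkn1a (2.75 ± 0.13), the autophagy and stress factor Trp53inp1 (1.92 ± 0.02) and the RNA-binding protein Zmat3 (1.87 ± 0.18). Mdm2 was also called, at 1.69 ± 0.02. Further probes of Eda2r read 0.94 to 1.62 and the other Zmat3 probe read 0.30, so the size differed between probes. The gene called lower was Pmaip1, which encodes the pro-apoptotic protein NOXA, at -1.41 ± 0.03. With median centring in place of loess the calls fell to 1 in G1KO and 5 in G2KO.

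As for Ccng1, many targets were lower in the WT of G2KO than in the WT of G1KO. In this culture 12 of the 25 p53 targets were called lower and 1 higher than in the WT of G1KO, with a median of -0.97, beside 12.8% called over all genes. Cdkn1a had a log2 level of 10.08 and 9.85 in Cy5 and Cy3 in the WT of G2KO, 12.41 and 12.39 in the WT of G1KO, 12.69 and 12.73 in G2KO, and 11.58 and 11.69 in G1KO. Mdm2 had 11.30 and 11.25, 13.09 and 13.21, 12.94 and 13.00, and 12.20 and 12.26 in the same order of cultures. For both genes the WT of G2KO was lowest and G1KO next in each dye. Between G2KO and the WT of G1KO 0 targets were called higher and 6 lower, with a median of 0.10, beside 13.5% called over all genes. Among these 6 were Perp (-3.95), Plk2 (-2.84), Plk3 (-1.44) and Btg2 (-1.36), which were also called lower in the WT of G2KO. They were thus lower in both cultures of the G2KO pair, whereas Ccng1 was not lower in G2KO.

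The genes of the p53 circuit itself differed as well in this WT culture. Trp53, which encodes p53, was lower there than in the WT of G1KO by 1.04 ± 0.07 on the log2 scale at its brighter probe. At that probe G2KO was also below the WT of G1KO, by 0.58 ± 0.03, so part of the difference was shared by the G2KO pair. The ratios of knockout over WT at the brighter Trp53 probe were -0.12 ± 0.02 in G1KO and 0.46 ± 0.05 in G2KO. The second Trp53 probe read 0.03 and -0.02, and was not compared between the WT cultures. The Cdkn2a locus has more than 1 product, among them ARF, which inhibits MDM2. Which transcript its tested probe reads was not given in the sources used here. Cdkn2a had a log2 level of 13.09 and 13.04 in the WT of G2KO against 9.80 and 9.69 in the WT of G1KO. It was 9.83 and 9.42 in G2KO and 10.66 and 10.76 in G1KO. The WT of G2KO thus stood apart from the other 3 cultures in Cdkn2a, and the part of this in the Ccng1 level was not tested.

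**Figure D4:**
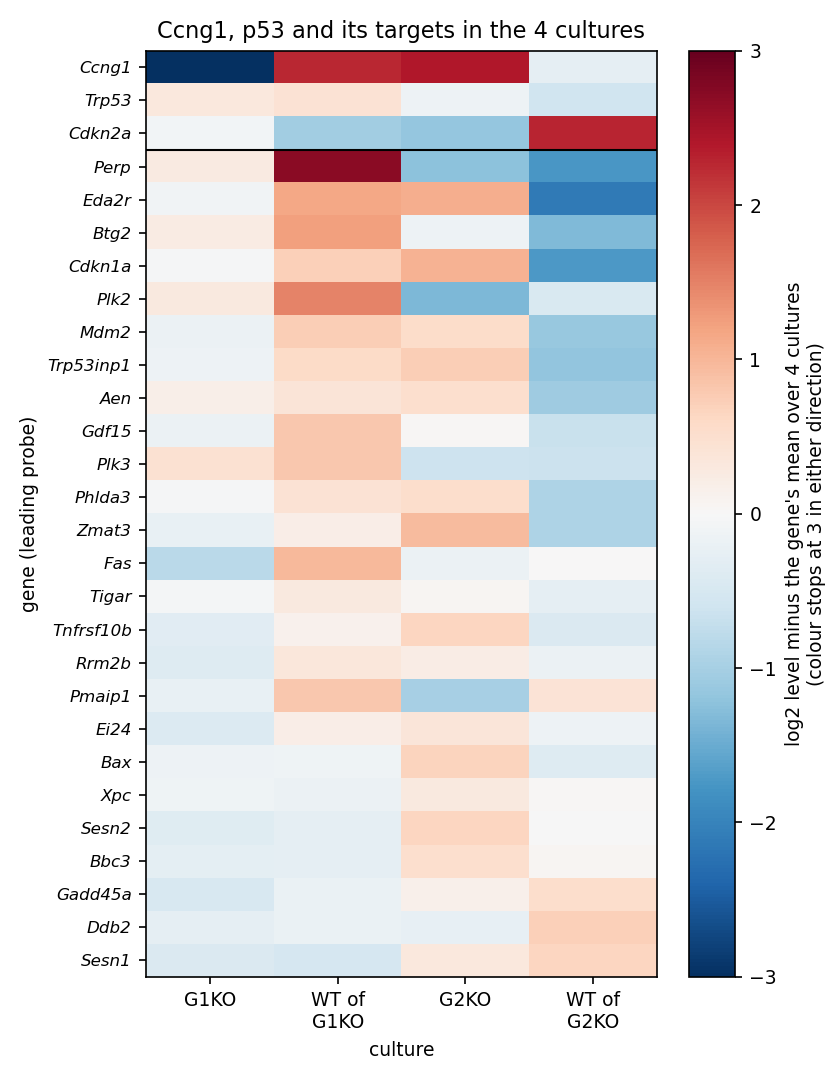
Mean log2 level over both dyes of Ccng1 (brighter probe), Trp53, Cdkn2a and 25 p53 targets in the 4 cultures, each gene centred on its mean over the cultures (red higher, blue lower). Targets are ordered by the difference between the WT cultures. The WT of G2KO is lowest for many targets at the top, among them Eda2r, Cdkn1a and Mdm2, and highest for Cdkn2a.

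The protein partners of cyclins G and I, among them PP2A subunits and CDK5 regulators, were called at a share near that of all genes, which was 6.95% in G1KO and 7.57% in G2KO. Of 18 partners 17 were tested in G1KO over WT, and 0 were called higher and 1 lower, the PP2A regulatory subunit gene Ppp2r5b (-2.62 ± 0.27). In G2KO over WT 18 were tested, with Mdm2 called higher and Cdkn2a lower (-3.44 ± 0.32). Ppp2r5c, which encodes the PP2A subunit that binds cyclins G, read 0.03 ± 0.06 in G1KO and -0.25 ± 0.07 in G2KO. Its 2 other tested probes read -0.14 and 0.01 in G1KO and 0.11 and 0.24 in G2KO, so the sign in G2KO differed between probes. Ppp2ca, the catalytic subunit, read 0.23 ± 0.10 and -0.17 ± 0.11, and Cdk5 read -0.20 ± 0.13 and 0.05 ± 0.17.

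Of the other atypical cyclins 13 were tested. Ccnjl was called higher in G1KO over WT (1.16 ± 0.08) and 0 were called in G2KO over WT, where their median was -0.01, so that the share in G1KO was near the 6.95% of all genes, with 7.57% in G2KO. FoxO targets besides Ccng2 had a median of 0.23 in G1KO and 0.00 in G2KO over 13 tested genes, and 2 were called in each comparison beside the same shares. Foxo1 itself was called higher in G1KO (1.10 ± 0.02) and lower in G2KO (-1.53 ± 0.07), the transcription factor Klf9 was lower in G1KO (-1.20 ± 0.08), and the ubiquitin ligase gene Fbxo32 was lower in G2KO (-3.55 ± 0.13).

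The clathrin coat and uncoating genes around Gak were also called at a share near those 6.95% and 7.57%. For G1KO over WT 18 of 20 were tested, with a median of -0.17 and 1 called, the clathrin light chain gene Cltb (-1.76 ± 0.15). In G2KO over WT 19 were tested, with a median of -0.13 and 2 called, both lower, the dynamin gene Dnm1 (-1.91 ± 0.30) and the kinase Bmp2k (-1.42 ± 0.15), whose 3 other probes read -0.22 to 0.01. Hspa8, which encodes HSC70, the uncoating partner of GAK, read 0.30 ± 0.28 in G2KO over WT. In G1KO over WT its brightest probe was marked as an outlier on 1 array and read 0.28 on the other, and its second probe read 0.15.

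**Figure D5:**
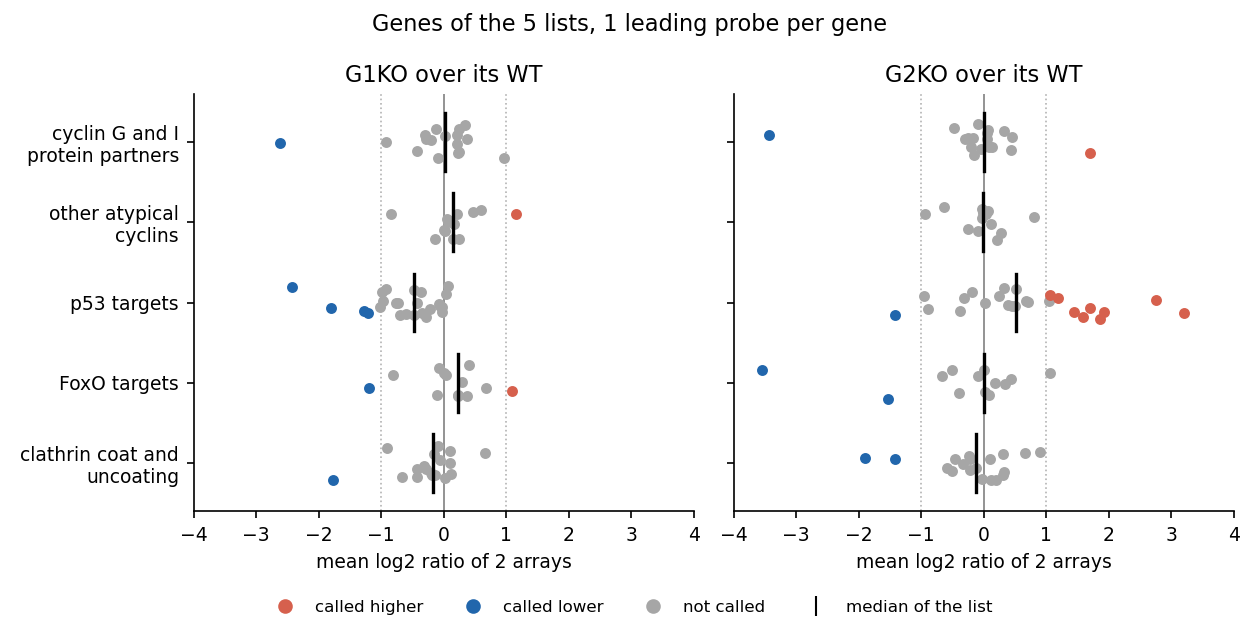
Mean log2 ratio of the 2 arrays (horizontal axis) for the tested genes of the 5 lists, 1 brightest probe per gene, in the G1KO comparison (left) and the G2KO comparison (right). Red and blue points were called higher and lower, grey points were not called, black bars are medians and dotted lines 2-fold. The p53 targets have a median of -0.48 on the left and 0.52 on the right, and the medians of the other lists lie between -0.17 and 0.23.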

How the data were processed

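Total RNA of 4 MEF cultures was labelled with Cy5 or Cy3 and hybridised in pairs to 4 Agilent whole mouse genome arrays, on 1 slide and in 1 scan. Per the file headers, spots were read with Feature Extraction 10.5.1.1 (9.1 per the labels) and designed on build mm8. The deposited scanner files hold intensity (mean spot brightness and local background), flags, and the software's own log10 ratio after its background subtraction and dye normalisation. The authors' series table repeats that log10 ratio, turned to knockout over WT. The files' p-values of single arrays were not used.

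With limma 3.58.1 in R 4.3.3, intensity was corrected by normexp (offset 50), control and outlier spots were removed, arrays were normalised by loess, and spots of a probe were averaged. Single-channel levels used Aquantile scaling. Each dye-swap pair was counted as 1 replicate. The steps were tested on simulated data. The number of arrays limits the precision, and no spot was saturated. A level places a culture only against the same probe in other cultures.

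Symbols of non-members were updated through RefSeq GRCm38.p6, by accession for 24375 probes, by symbol for 6301 and by older symbol for 2426, while 8072 kept the file's name. Beyond the members, named genes were the 3 nearest in pattern, the nearest detected genes on each side and those within 250 kb of Ccng1 or Ccng2, and from each list those called, at most 4 per direction and comparison, plus Trp53, Mdm2, Cdkn1a, Ppp2r5c, Ppp2ca, Cdk5 and Hspa8. A few genes that this rule picks are not reported here. Members and lists were chosen with earlier results of these data known. Alternatives changed the background correction, normalisation, source of the ratio, filter, fold and arrays.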

Additional observations from a re-analysis of the deposited data

Results flagged for a closer look

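For 6 member probes, all of Ccng1 or Ccni, both arrays of the G1KO comparison moved one way and both of the G2KO comparison the other. Over all probes tested in both comparisons 8637 of 24150 (35.8%) did so, so this is common. For Ccng1 the gene itself was targeted in G1KO. The difference between the comparisons was not tested. The mean log2 ratio of the G2KO comparison minus that of the G1KO comparison was 9.33 and 7.45 at the Ccng1 probes. At the Ccni probes on the minus strand it was -0.55, -0.61, -0.53 and -0.80.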

How the results depend on the processing

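The log2 ratio of Ccng1 in G1KO over WT was -6.97 without background correction, -7.20 with a normexp offset of 10, -7.62 from the scanner's own ratio and -7.62 from the series table, against -6.67, and -6.76 and -6.57 on the single arrays. Ccng2 in G2KO over WT was 0.28 and -0.10 on the single arrays, and moved by less than its SD under the other alternatives. The count of 2 member probes called in each comparison was unchanged under all alternatives run. Of 90 further ratios 83 kept their sign, and the 7 that did not were of the fifth Ccni probe and the Gak probes in G1KO over WT. All 80 values between cultures of different pairs kept their sign under other scalings. With the scanner's processed signal a Ccni probe reached 1.04 between the WT cultures, past 2-fold. With median centring the p53 target calls were 1 and 5 instead of 4 and 10. The other background corrections and ratio sources gave 4 or 5 in G1KO and 10 to 12 in G2KO. These checks of the p53 target calls were chosen after seeing the data. No paired analysis was possible because the groups had 1 replicate each. With 1 culture per genotype the spread between cultures is unknown.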
